A study of Arabidopsis thaliana with 6 samples.

Results

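The Aux/IAA genes and 7 auxin-conjugating GH3 genes were followed in RNA-sequencing libraries from Arabidopsis thaliana seedlings. All 29 Aux/IAA genes (IAA1 to IAA20 and IAA26 to IAA34) and 7 GH3 genes (GH3.1 to GH3.6 and GH3.17) were taken by locus identifier. They make up 36 of the 38194 loci in the count files. The rule that picks them uses no measured value, but the set was chosen with earlier results of these data known. DEX seedlings (3 libraries) were 35S:GR-TCP5 plants, aged 12 days, given dexamethasone for 4 hours, and MOCK seedlings (3 libraries) were plants of the same line and age given the same ethanol and silwet solution without it. The dose is labelled as 10 mM, a unit that is in doubt. In 35S:GR-TCP5 the constitutive 35S promoter drives a fusion of the TCP5 transcription factor to the steroid-binding part of the glucocorticoid receptor, which enters the nucleus when dexamethasone binds. MOCK plants carried the fusion too, and no plants without it were included, so effects of dexamethasone itself and of TCP5 cannot be told apart. How many independent lines were used and whether the replicates were separate cultures are not stated, so p-values measure only the spread between these libraries, which may be technical.

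Aux/IAA proteins are repressors of auxin signalling. They bind auxin response factors (ARFs) on DNA and bring in TOPLESS corepressors. Auxin joins the degron of an Aux/IAA protein to a TIR1/AFB receptor, which leads to ubiquitination and breakdown of the repressor. Many Aux/IAA and GH3 genes are themselves switched on by auxin through ARFs, and GH3 enzymes of this group couple auxin to amino acids, so both families feed back on the signal that induces them.

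The 5 Aux/IAA genes that passed the test below all encode a degron. Its core, the residues GWPP, is shown with the codons around it, because the core is what the receptor binds. The coding bases were read from RefSeq for the TAIR10.1 assembly and run 5′ to 3′ on the coding strand, with the 12 bases of the core in capitals. The sites were chr4:8361433-8361468 on the plus strand for IAA1, chr4:14142546-14143035 on the plus strand for IAA11, where an intron was removed, chr1:1136935-1136970 on the plus strand for IAA17, chr4:14324651-14324686 on the minus strand for IAA27 and chr5:9033809-9033844 on the plus strand for IAA28.
IAA1: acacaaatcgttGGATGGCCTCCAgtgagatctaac
IAA11: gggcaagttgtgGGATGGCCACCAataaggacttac
IAA17: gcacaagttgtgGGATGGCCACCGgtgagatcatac
IAA27: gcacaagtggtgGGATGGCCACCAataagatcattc
IAA28: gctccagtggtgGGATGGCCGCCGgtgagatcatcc
The core was found in 23 of the 29 Aux/IAA genes. It was not found in IAA20, IAA30, IAA31, IAA32, IAA33 and IAA34, which belong to the branch of the family known to lack a full degron. Of the 25 Aux/IAA genes with enough counts to be tested 22 had the core, and 5 of these passed. Levels of all 23 genes with the core spanned 0.0385 (IAA15, not tested) to 129 CPM per kb of exon, with a median of 12.4 (CPM, exon counts per 1000000 counts of the library, TMM-scaled). Of the 6 without it 3 were tested and none passed, where 4.67% of all genes tested passed. So few genes cannot tell whether the core goes with passing. Levels of the 6 spanned 0.00994 to 1.04 CPM per kb with a median of 0.304.

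Auxin response factors bind the letters TGTCTC or TGTCGG, and class II TCP factors bind GGNCCC. These letters were searched on both strands in the 250 bases upstream of each gene's start, again from RefSeq for TAIR10.1. TGTCTC was found for 12 of the 36 genes (33.3%), against 10.9% of 27443 promoters of the same length. TGTCGG was found for 6 (16.7%, against 4.2%) and GGNCCC for 5 (13.9%, against 7.4%). The promoters of IAA1 and GH3.5, which rose, of GH3.3, the gene with the largest fitted fold change of the 31 members tested, and of IAA17, which fell, are shown with these letters or their reverse complement in capitals. They lie at chr4:8360746-8360995 (plus strand), chr4:13653329-13653578 (plus strand), chr2:9866563-9866812 (minus strand) and chr1:1135828-1136077 (plus strand), in that order.
IAA1: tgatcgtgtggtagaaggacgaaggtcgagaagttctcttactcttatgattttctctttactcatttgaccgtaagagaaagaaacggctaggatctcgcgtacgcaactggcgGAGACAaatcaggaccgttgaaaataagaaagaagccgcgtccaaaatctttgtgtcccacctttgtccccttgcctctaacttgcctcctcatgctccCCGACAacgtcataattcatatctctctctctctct
GH3.5: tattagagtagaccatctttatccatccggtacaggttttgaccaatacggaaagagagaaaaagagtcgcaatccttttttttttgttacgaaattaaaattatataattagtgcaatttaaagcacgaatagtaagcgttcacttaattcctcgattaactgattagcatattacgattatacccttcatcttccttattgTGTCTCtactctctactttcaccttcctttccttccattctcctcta
GH3.3: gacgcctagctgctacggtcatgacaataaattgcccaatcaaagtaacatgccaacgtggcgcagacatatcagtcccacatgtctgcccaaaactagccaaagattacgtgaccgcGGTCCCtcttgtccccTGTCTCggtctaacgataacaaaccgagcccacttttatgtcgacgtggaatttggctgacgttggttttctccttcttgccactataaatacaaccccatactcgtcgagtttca
IAA17: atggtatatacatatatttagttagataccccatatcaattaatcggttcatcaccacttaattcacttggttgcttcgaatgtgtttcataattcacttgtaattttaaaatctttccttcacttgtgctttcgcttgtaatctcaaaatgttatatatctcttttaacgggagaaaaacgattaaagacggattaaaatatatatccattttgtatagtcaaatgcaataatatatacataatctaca
The IAA1 window held TGTCTC and TGTCGG, both on its reverse strand. GH3.5 held TGTCTC alone, and GH3.3 held TGTCTC and, in the same window, GGNCCC without overlap. IAA27, which fell, held TGTCGG in its window. IAA17 held none of the 3 motifs, and neither did IAA11, IAA28 or IAA14. Of the 12 genes with TGTCTC, IAA34 was not tested, IAA1 and GH3.5 passed and the rest did not. Of all members tested 19.4% passed, and of all genes tested 4.67%. IAA19, with 3 matches, had a log2 fold change of 0.05. A match in such a window is a description of the letters and does not show that a factor binds there.

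The 6 libraries held between 33428836 and 76859163 exon counts. The library names carry one date for replicates 1 and 2 of each group and a later one for replicate 3, called here the first and the second run. The runs differed in root transcripts. Of 15 root marker genes, PLT1, PLT2, CASP5, EXPA7, RHD6 and RSL4 were at 0 counts in all 4 first-run libraries, and no marker was at 0 in the second run. Their summed level was 367, 303 and 1169 CPM in DEX libraries 1 to 3, against 558, 718 and 3214 CPM in MOCK libraries 1 to 3, and most of it was PYK10, a beta-glucosidase of ER bodies. The other 14 summed to 1.95, 1.49 and 45.2 CPM in DEX and to 1.37, 2.44 and 108 CPM in MOCK. The labels call every sample a seedling and name no organ, so the amount of root in the first-run samples is not known. The 7 leaf and shoot markers summed to 17867 to 21210 CPM in DEX and 19276 to 21980 CPM in MOCK libraries, and 1 of them, the leaf gene AS2, passed the test described below (log2 fold change −1.01, edgeR adjusted p = 0.0419). TCP5 itself, whose counts do not separate transgene from native transcript, was at 233, 263 and 964 CPM in DEX, against 323, 296 and 1177 CPM in MOCK, a log2 fold change of −0.31 ± 0.10 (SE, edgeR quasi-likelihood test, Benjamini-Hochberg adjusted p = 0.152).

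The question put to the members was whether their transcripts changed when the TCP5 fusion was activated. Between DEX and MOCK, IAA1, IAA11 and GH3.5 rose, and IAA17, IAA27 and IAA28 fell. Of the 36 members 31 had enough exon counts to be tested, and these 6 passed an adjusted p of 0.05 (19.4%), while 4.67% of the 21934 genes tested passed. In all genes, 1.09% passed as higher in DEX and 3.58% as lower. The members did not shift one way: 14 had positive and 17 negative fold changes, with a median log2 fold change of −0.005, against 0.004 over all genes tested. The median size of the log2 fold change, whatever its sign, was 0.263 in the members and 0.158 over all genes. At an unadjusted p under 0.05 there were 11 members and 19% of all genes. The plot of fold changes by gene shows the 31 members in order.

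**Figure D1:**
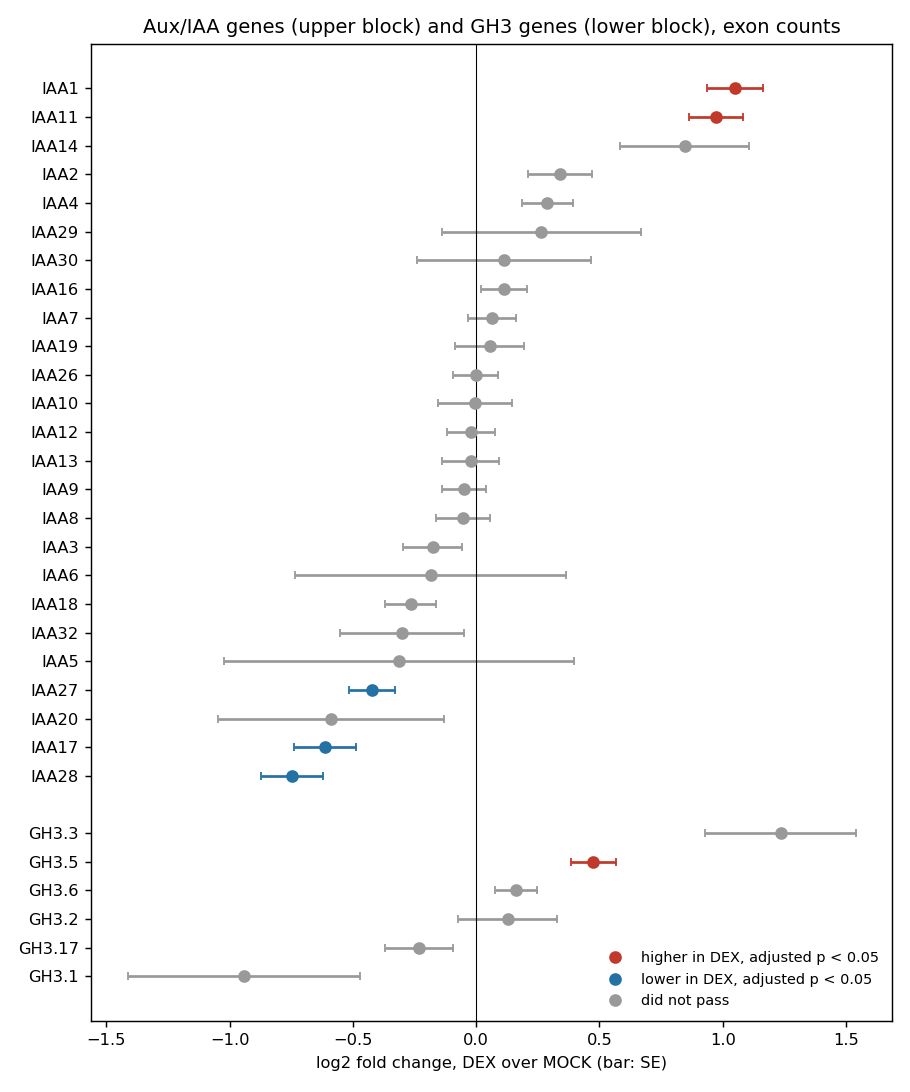
Log2 fold change in exon counts, DEX over MOCK, for the 25 Aux/IAA genes (upper block) and 6 GH3 genes (lower block) that were tested, with bars of 1 SE from the edgeR fit on 3 DEX and 3 MOCK libraries. IAA1 and IAA11 lie near 1, IAA17, IAA27 and IAA28 lie between −0.42 and −0.75, and GH3.3, at 1.23, has a wide bar and did not pass.

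Of the 25 Aux/IAA genes tested 2 rose and 3 fell (20% in all, against 4.67% of all genes tested), and their median log2 fold change was −0.02. IAA1 (AT4G14560), a short-lived repressor known as an early auxin-induced gene, was at 17.4, 18.5 and 8.53 CPM in DEX libraries 1 to 3, against 7.95, 8.33 and 4.7997 CPM in MOCK libraries 1 to 3. All 3 DEX libraries lay above all 3 MOCK libraries, though second-run DEX was close to first-run MOCK. The means were 14.8 ± 5.49 CPM in DEX and 7.03 ± 1.94 CPM in MOCK (SD, n = 3 each). The fold change with run in the model was 2.07, or 1.05 ± 0.11 on the log2 scale (edgeR, Benjamini-Hochberg adjusted p = 0.00436). It was 1.14 in the first run and 0.82 in the second.

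IAA11 (AT4G28640), another Aux/IAA repressor, moved by nearly as much. It was at 14.9, 13.3 and 11.01 CPM in DEX and at 7.15, 6.82 and 5.93 CPM in MOCK, and the groups did not overlap. The means were 13.0 ± 1.93 CPM in DEX and 6.63 ± 0.631 CPM in MOCK (SD, n = 3 each), a 1.96-fold difference with a log2 fold change of 0.97 ± 0.11 (edgeR adjusted p = 0.00471). Of the 31 members 4 had all DEX libraries above all MOCK libraries, namely IAA1, IAA4, IAA11 and GH3.3, against 3.53% of all genes, and none had all DEX libraries below all MOCK libraries, against 4.65% of all genes. IAA11 shares 12 bases with AT4G28650 on the opposite strand, and the kit does not mark strand. AT4G28650 had a log2 fold change of −0.08, opposite in sign to that of IAA11.

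**Figure D2:**
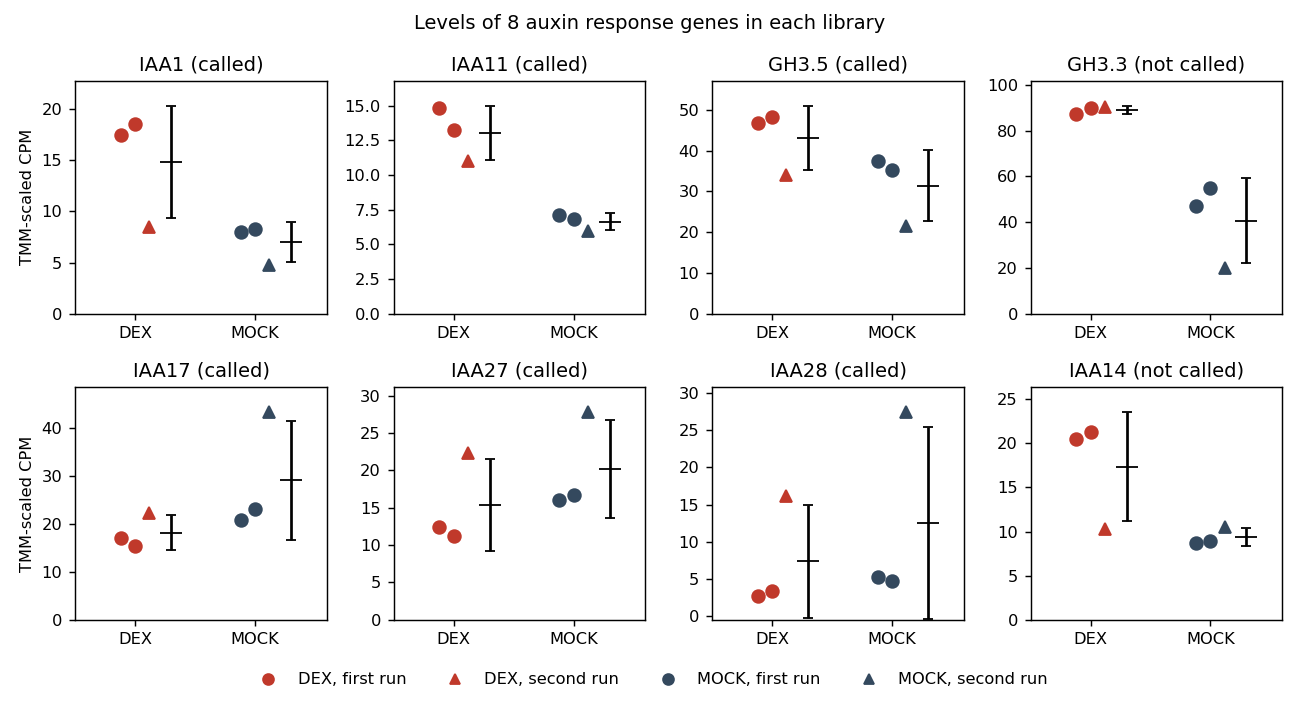
Level of the 6 members that passed and of GH3.3 and IAA14 in each library, in CPM scaled by TMM, with DEX left of MOCK, circles for the first run, triangles for the second, and the group mean ± SD over 3 libraries. IAA1, IAA11 and GH3.3 do not overlap between groups, while for IAA17, IAA27 and IAA28 the second-run DEX library lies above at least 1 first-run MOCK library.

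The 3 genes that fell all stood higher in the second run than in the first. IAA28 (AT5G25890), known in Arabidopsis from a mutant with few lateral roots, was at 2.69, 3.37 and 16.1 CPM in DEX, against 5.30, 4.79 and 27.4 CPM in MOCK. Each DEX library lay below the MOCK libraries of its own run, but the groups overlapped across runs. The log2 fold change was −0.75 ± 0.13 (edgeR adjusted p = 0.0177), with −0.74 in the first run and −0.77 in the second. IAA17 (AT1G04250), also named AXR3 after its auxin-resistant mutant, was at 17.0, 15.5 and 22.3 CPM in DEX and at 20.9, 23.2 and 43.4 CPM in MOCK. Its second-run DEX value lay between the first-run MOCK values, and the gap was widest in the second run, at −0.96 on the log2 scale against −0.44 in the first. The fitted log2 fold change was −0.61 ± 0.13 (edgeR adjusted p = 0.0357). IAA27 (AT4G29080), a repressor also described as phytochrome-associated protein PAP2, was at 12.4, 11.2 and 22.4 CPM in DEX, against 16.03, 16.8 and 27.8 CPM in MOCK. It was again lower in DEX within each run, with a log2 fold change of −0.42 ± 0.09 (edgeR adjusted p = 0.0453). IAA27 shares 41 bases with AT4G29070 on the opposite strand, which had a log2 fold change of −0.24 (edgeR adjusted p = 0.256).

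The summed level of the root markers, most of it PYK10, was lower in DEX than in MOCK in both runs. PYK10 was at 365, 301 and 1124 CPM in DEX, against 556, 716 and 3105 CPM in MOCK. It fell by 1.11 ± 0.17 on the log2 scale (edgeR adjusted p = 0.0118), and of the 7 root markers tested it was the only one that passed. The sum of the other 14 overlapped between groups in the first run, at 1.95 and 1.49 CPM in DEX against 1.37 and 2.44 CPM in MOCK. In the second run it was 45.2 CPM in DEX and 108 CPM in MOCK, though NRT2.1 was higher in DEX. Whether these differences have a part in the falls of IAA17, IAA27 and IAA28 was not tested. In such bulk samples fewer cells of a type and less RNA per cell cannot be told apart. Fitted on the first run alone, where the markers other than PYK10 were near 0, IAA28 had a log2 fold change of −0.73, IAA17 of −0.43 and IAA27 of −0.47, with edgeR adjusted p-values of 0.112, 0.109 and 0.0915. When replicate numbers entered as a block, IAA28 still passed (edgeR adjusted p = 0.0398), while IAA17 (edgeR adjusted p = 0.0751) and IAA27 (edgeR adjusted p = 0.0939) did not. The calls also changed with the libraries kept. Leaving out 1 library at a time, IAA28 and IAA17 each passed in 2 of 6 fits and IAA27 in none (edgeR adjusted p from 0.0582 to 0.216). Over all genes 1024 passed with every library and 279 to 1132 with 1 left out. A lost call therefore does not show that 1 library carries the effect. Over all alternatives the log2 fold change was −0.83 to −0.66 for IAA28, −0.70 to −0.43 for IAA17 and −0.48 to −0.36 for IAA27.

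The other 20 Aux/IAA genes tested did not pass. IAA14 (AT4G14550), known as SLR from a mutant without lateral roots, had the largest fitted fold change among them. It was at 20.5, 21.3 and 10.2 CPM in DEX, against 8.72, 8.94 and 10.6 CPM in MOCK. The first-run DEX libraries were the highest by far, and the second-run pair did not differ in that direction. The log2 fold change was 0.85 ± 0.26 in the fit of both runs (edgeR adjusted p = 0.156). It was 1.25 ± 0.11 in a fit of the first run alone (edgeR adjusted p = 0.00561) and −0.04 between the second-run libraries. IAA14 and IAA1 are neighbours on chromosome 4, divergently transcribed with 10732 bases and no other coding gene between them.

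IAA4 and IAA2, both auxin-inducible, were higher in DEX within each run without passing. IAA4 was at 53.4, 53.2 and 51.8 CPM in DEX and at 42.3, 37.8 and 50.6 CPM in MOCK, a log2 fold change of 0.29 ± 0.10 (edgeR adjusted p = 0.175). IAA2 was at 56.5, 59.7 and 168 CPM in DEX, against 53.0, 52.9 and 100.1 CPM in MOCK, a log2 fold change of 0.34 ± 0.13 (edgeR adjusted p = 0.205). Its gap was mostly in the second run, where both libraries were also highest. IAA18 was at 20.8, 23.3 and 31.9 CPM in DEX and at 27.8, 29.2 and 32.8 CPM in MOCK, with a log2 fold change of −0.26 ± 0.10 (edgeR adjusted p = 0.214). Within their own run, all DEX libraries lay above the MOCK libraries for 8 members, against 14.7% of all genes, and below them for 5, against 17.8%.

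Several members with well known roles in growth did not pass, and their groups overlapped. IAA3, named SHY2 and described in Arabidopsis as a target of the related factor TCP3, was at 17.5, 16.4 and 19.2 CPM in DEX, against 16.03, 20.9 and 23.4 CPM in MOCK. Its log2 fold change was −0.18 ± 0.12 (edgeR adjusted p = 0.488). IAA19, known from the msg2 mutant of hypocotyl bending, was at 4.95, 4.26 and 7.19 CPM in DEX and at 4.24, 4.33 and 7.41 CPM in MOCK, and the groups overlapped fully. Its log2 fold change was 0.05 ± 0.14 (edgeR adjusted p = 0.880). IAA29, a gene of the shade response, was at 1.47, 1.52 and 2.49 CPM in DEX, against 2.23, 1.39 and 0.838 CPM in MOCK. The second-run libraries differed by 1.53 on the log2 scale and the first-run libraries by −0.23, so the fit of both, 0.26 ± 0.40, had a wide error (edgeR adjusted p = 0.791). IAA3 shares 640 bases with AT1G04230 on the opposite strand, whose log2 fold change was −0.02.

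The abundant repressors were among those that did not pass. IAA16 was at 237, 263 and 316 CPM in DEX, against 234, 223 and 299.6 CPM in MOCK (log2 fold change 0.11 ± 0.09, edgeR adjusted p = 0.579). IAA7, named AXR2, was at 72.5, 67.4 and 109 CPM in DEX, against 67.0, 75.0 and 92.3 CPM in MOCK (log2 fold change 0.07 ± 0.10, edgeR adjusted p = 0.782). The values of both overlapped between groups and moved with the run. Among rare members, IAA32 was at 1.81, 1.25 and 1.45 CPM in DEX, against 1.83, 1.68 and 2.09 CPM in MOCK (log2 fold change −0.30 ± 0.25). IAA32 shares 826 bases with AT2G01210 on the opposite strand, which had a log2 fold change of −0.32. IAA20 was at 0.240, 0.271 and 0.414 CPM in DEX, against 0.465, 0.262 and 0.709 CPM in MOCK (log2 fold change −0.59 ± 0.46). The remaining 10 members tested, IAA5, IAA6, IAA8, IAA9, IAA10, IAA12, IAA13, IAA26, IAA30 and GH3.2, had log2 fold changes from −0.31 to 0.13, with a lowest edgeR adjusted p of 0.795.

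Of the 7 GH3 genes 6 were tested, 1 passed (16.7%) and it rose. Over all genes tested 4.67% passed, and 1.09% passed as higher in DEX. The median log2 fold change of the 6 GH3 genes was 0.145, with 4 positive and 2 negative. GH3.5 (AT4G27260), an enzyme that conjugates auxin and can also act on salicylic acid, was at 46.8, 48.3 and 34.0 CPM in DEX, against 37.4, 35.3 and 21.6 CPM in MOCK. Both runs had DEX above MOCK, and the second-run DEX library lay below the first-run MOCK libraries. The difference was 1.39-fold, with a log2 fold change of 0.47 ± 0.09 (edgeR adjusted p = 0.0270). It did not pass once replicate numbers entered as a block (edgeR adjusted p = 0.0661), and leaving out 1 library at a time it passed in 1 of 6 fits.

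GH3.3 (AT2G23170), one of the GH3 enzymes most readily induced by auxin, was at 87.1, 89.9 and 90.2 CPM in DEX, against 47.2, 54.9 and 19.9 CPM in MOCK. The DEX libraries were all alike and all above MOCK, whose second-run library was far lower than the first-run pair. The means were 89.1 ± 1.69 CPM in DEX and 40.7 ± 18.4 CPM in MOCK (SD, n = 3 each). The fold change of 2.35, or 1.23 ± 0.31 on the log2 scale, was the largest of the members tested but did not pass (edgeR adjusted p = 0.108). In the first run alone it was 0.80 ± 0.11 (edgeR adjusted p = 0.0149). Both DESeq2 and limma-voom called GH3.3 and IAA14 besides the 6 members above.

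The other GH3 genes tested did not pass. GH3.6, also named DFL1, was at 79.7, 72.0 and 40.6 CPM in DEX, against 64.2, 68.0 and 38.3 CPM in MOCK (log2 fold change 0.16 ± 0.09, edgeR adjusted p = 0.361). GH3.17, an enzyme known to couple auxin to glutamate, was at 9.02, 9.52 and 8.70 CPM in DEX and at 8.95, 10.7 and 12.7 CPM in MOCK (log2 fold change −0.23 ± 0.14, edgeR adjusted p = 0.420). GH3.1 was scarce, at 0.0685, 0.0902 and 1.125 CPM in DEX, against 0.164, 0.236 and 1.61 CPM in MOCK (log2 fold change −0.94 ± 0.47, edgeR adjusted p = 0.334). GH3.2 was at 1.88, 2.71 and 21.3 CPM in DEX and at 1.75, 2.70 and 17.8 CPM in MOCK, so the runs differed by far more than the groups. Summed over the 7 genes, GH3 transcripts made up 225, 222 and 196 CPM in DEX, against 160, 172 and 112 CPM in MOCK, so the groups did not overlap, and most of the gap came from GH3.3. The 29 Aux/IAA genes summed to 919, 898 and 1221 CPM in DEX, against 860, 865 and 1185 CPM in MOCK.

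Of the 36 members 5 had too few counts to be tested, none above 20 in any library. IAA15 had 4, 0 and 0 counts in DEX and 4, 6 and 0 in MOCK. IAA31 had 4, 8 and 6 counts in DEX, against 6, 2 and 20 in MOCK. IAA33 and IAA34 were at 0 in every first-run library, with 2 counts each in the second-run DEX library and 10 and 0 counts in the second-run MOCK library. GH3.4 was at 0 counts in all 6 libraries, which allows a level of up to 0.0888 CPM in any DEX library and 0.0966 CPM in any MOCK library (3 counts per library, counting error only). If both mates of a read pair were counted, which was not tested, these limits would be higher.

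Compared per kb of exon, the members differed in level by orders of magnitude. IAA16 was highest, with a mean of 129 CPM per kb over the 6 libraries, followed by IAA9 at 92.7, IAA8 at 60.4, IAA2 at 60.2 and IAA7 at 52.2 CPM per kb. The 3 highest held 42.2% of the summed CPM per kb of all members. IAA8 ranged from 46.7 to 73.4 CPM per kb between libraries and IAA2 from 38.9 to 124, so these neighbours in the order did not differ beyond their spread. Among the GH3 genes, the means over the 6 libraries were 30.6 CPM per kb for GH3.3, 26.1 for GH3.6 and 15.8 for GH3.5. GH3.3 lay above GH3.6 in each DEX library and below it in each MOCK library. The members that passed sat in the middle of the order: IAA17 had 18.0 CPM per kb, IAA1 11.6, IAA11 7.75 and IAA28 7.16. The plot of levels per length shows each library.

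**Figure D3:**
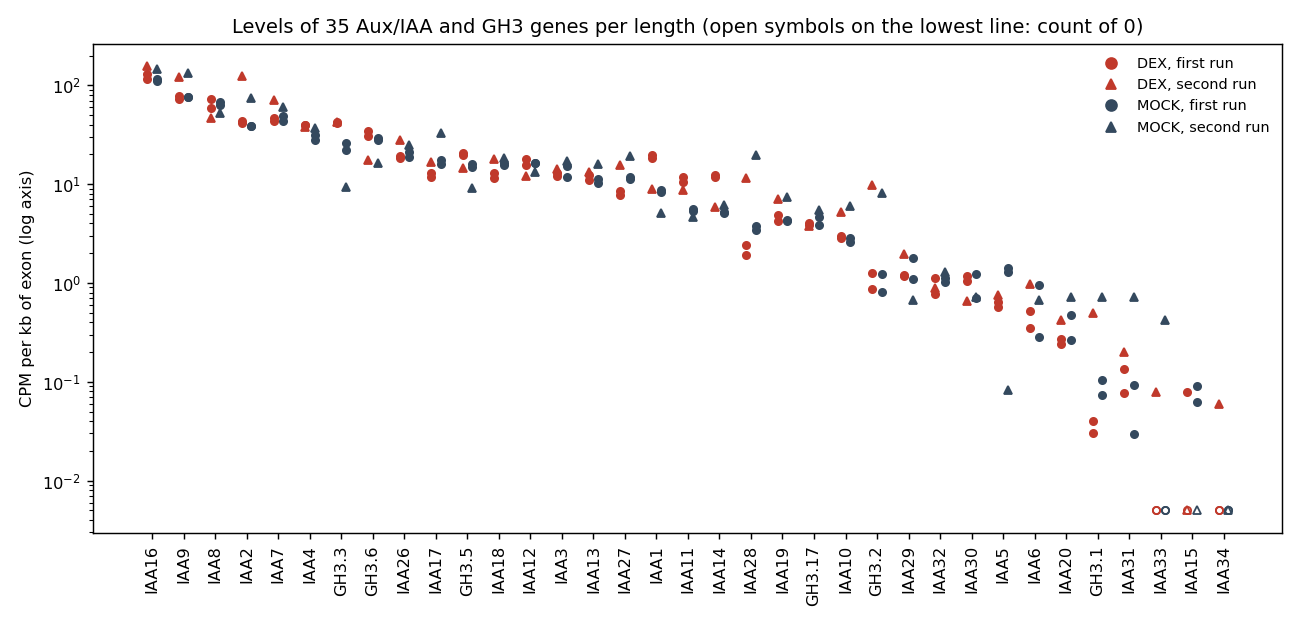
Level of the 35 members with any counts in each library, in CPM per kb of exon on a log axis, ordered by mean, with DEX (red) left of MOCK (dark blue), circles for the first run and triangles for the second, and open symbols on the lowest line for counts of 0. The 129 CPM per kb of IAA16 stands at one end and the 0.00994 of IAA34 at the other, and for GH3.1, GH3.2 and IAA28 the triangles of both groups lie far above the circles.

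The run moved some members more than the treatment did. Of the 31 tested, 4 were over 2-fold higher in the second run, namely GH3.1 by 9.80-fold, GH3.2 by 8.65-fold, IAA28 by 5.397-fold and IAA2 by 2.42-fold. The share of all genes that did so was not counted. The root markers were also higher in the second run. Within that run GH3.1 and IAA28 were lower in DEX, as was the sum of the 14 markers other than PYK10 (45.2 CPM in DEX, 108 CPM in MOCK). There GH3.2 (21.3 CPM in DEX, 17.8 CPM in MOCK) and IAA2 (168 CPM in DEX, 100.1 CPM in MOCK) were higher in DEX. The part of root tissue in these genes was not tested. The lowest ratios of second-run to first-run level were 0.429 for IAA5, 0.510 for IAA1 and 0.556 for GH3.6.

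Whether the DEX effect differed between runs was tested as an interaction, with 1 library per group in the second run. By edgeR it was called for 0 of the 31 members and 0 of 21934 genes, and 6 members and 6.55% of all genes had an unadjusted p under 0.05. For GH3.3 the second-run log2 fold change exceeded that of the first run by 1.39 ± 0.20 (edgeR interaction, adjusted p = 0.568). For IAA14 it was lower by a log2 difference of −1.29 ± 0.20 (edgeR interaction, adjusted p = 0.568). The other 4 were IAA5, IAA2, IAA29 and IAA17, with adjusted p-values from 0.666 to 0.746. Run by DESeq2, the interaction was called for GH3.3 (adjusted p = 0.00110) and IAA14 (adjusted p = 0.0419), and limma-voom called neither. The widest gap was that of IAA5, which had 29, 30 and 20 counts in DEX and 74, 84 and 2 in MOCK, so its second-run value rests on 2 MOCK counts. IAA5 also shares 48 bases with AT1G15570, the cyclin CYCA2;3, which rose by a log2 fold change of 0.77 (edgeR adjusted p = 0.0177). The plot of the 2 runs against each other shows which members held their direction.

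**Figure D4:**
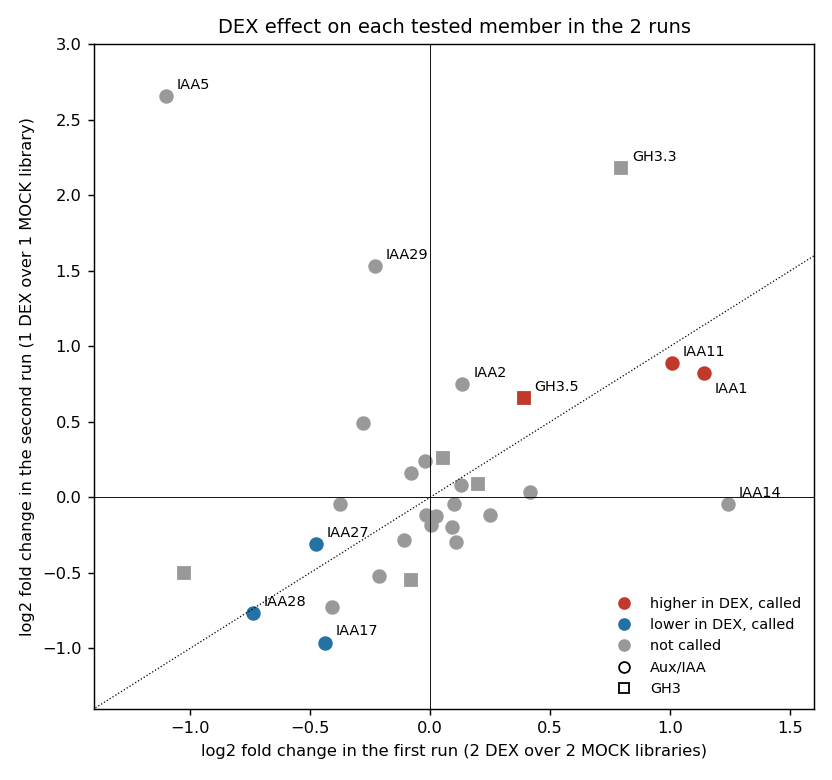
Log2 fold change, DEX over MOCK, of the 31 members tested, in the second run (1 DEX and 1 MOCK library, vertical axis) against the first run (2 DEX and 2 MOCK libraries, horizontal axis), with circles for Aux/IAA and squares for GH3 genes and a dotted line of equality. IAA1, IAA11 and GH3.5 are positive in both runs and IAA17, IAA27 and IAA28 negative in both, while IAA14 lies at 1.24 in the first run and −0.04 in the second.

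Intron counts, from the same libraries and so no independent replicate, could be fitted for 18 members. Which RNA they come from was not tested. Of the 18 members 14 had the same sign in introns as in exons, a share that was not counted over all genes. Only IAA14 passed, where 0.956% of 12870 genes did. IAA14 had 86, 60 and 12 intron counts in DEX, against 32, 27 and 4 in MOCK, and was higher in DEX in each run. Its exon counts did not differ in that direction in the second run (log2 fold change −0.04). The log2 fold change in introns was 1.56 ± 0.35 (edgeR adjusted p = 0.0404), and the call was lost with the replicate block (edgeR adjusted p = 0.0633) and without any 1 of the 6 libraries. IAA1 had 33, 34 and 8 intron counts in DEX, against 12, 22 and 10 in MOCK, a log2 fold change of 0.82 ± 0.46 (edgeR adjusted p = 0.628). IAA11 and GH3.3 had at most 16 intron counts in any library and did not pass. The sign differed between introns and exons for GH3.5, IAA2, IAA8 and IAA12, none of which passed in introns. For GH3.5 the log2 fold change in introns was −0.19 ± 0.68, from 3, 12 and 8 counts in DEX against 9, 18 and 4 in MOCK, and for IAA2 it was −0.52 ± 0.30.

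The genes that act on auxin and on Aux/IAA proteins were described by list. Over all genes tested 1.09% passed as higher in DEX and 3.58% as lower. All DEX libraries lay below all MOCK libraries for 4.65% of all genes. The 6 TIR1/AFB receptors, which hold auxin against the degron, had no gene that passed by edgeR, 1 with an unadjusted p under 0.05 and a median log2 fold change of −0.01. That gene, AFB2, had a log2 fold change of −0.33 ± 0.08 (edgeR adjusted p = 0.0565) and was called by DESeq2 but not by limma-voom. By edgeR 0 of 7 SCF subunits and RUB pathway genes (median −0.04) and 0 of 5 TPL/TPR corepressors (median 0.04) passed, with 0 at an unadjusted p under 0.05 in either list and 0 called by DESeq2 or limma-voom. Of the 5 activating ARFs 1 fell and the median was −0.20. ARF6, an activator of organ growth and flower maturation, was at 66.9, 54.9 and 49.4 CPM in DEX, against 82.0, 76.4 and 77.1 CPM in MOCK, and the groups did not overlap. Its log2 fold change was −0.47 ± 0.11 (edgeR adjusted p = 0.0499), a call lost with the replicate block (edgeR adjusted p = 0.0703) and kept in 6 of 19 alternatives. Among 17 other ARFs 10 were tested and 1 rose. ARF11, of the class regarded as repressors, was at 38.8, 35.1 and 19.5 CPM in DEX, against 21.2, 24.0 and 10.4 CPM in MOCK. It was higher in DEX within each run, with a log2 fold change of 0.77 ± 0.10 (edgeR adjusted p = 0.00758).

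Of the 12 GH3 genes that are not members here 8 were tested and 1 fell. Over all genes tested 3.58% passed as lower in DEX, and 4.65% had all DEX libraries below all MOCK libraries. GH3.10, named DFL2 and known for a role in hypocotyl growth in red light, was at 51.0, 42.0 and 53.0 CPM in DEX, against 73.8, 82.2 and 65.8 CPM in MOCK, and the groups did not overlap. Its log2 fold change was −0.60 ± 0.12 (edgeR adjusted p = 0.0349, and 0.0741 with the replicate block). GH3.10 shares 432 bases with AT4G03410, and reads of the 2 cannot be told apart there. AT4G03410 had a log2 fold change of 0.13, opposite in sign to that of GH3.10. By edgeR 0 of 9 auxin conjugate hydrolases and DAO oxidases passed (median −0.29), with 3 at an unadjusted p under 0.05. ILL6 came nearest at −0.54 ± 0.15 (edgeR adjusted p = 0.0879), was called by DESeq2 and was not called by limma-voom. Among 9 auxin synthesis genes tested 1 rose and 1 fell, against 1.09% and 3.58% of all genes tested. YUC5, a flavin monooxygenase of the last step, was at 5.55, 5.47 and 24.7 CPM in DEX, against 0.656, 0.497 and 3.157 CPM in MOCK (log2 fold change 3.144 ± 0.16, edgeR adjusted p = 0.000435). TAA1, the aminotransferase of the step before, was at 4.83, 3.96 and 3.58 CPM in DEX, against 7.21, 6.79 and 8.50 CPM in MOCK (log2 fold change −0.85 ± 0.17, edgeR adjusted p = 0.0307).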

How the data were processed

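Each deposited file held the authors' raw read counts per locus in 1 library, with separate columns for exons, introns and both together and a gene length in bases as another unit, per the file headers. The submitters' processing notes name STAR and DESeq2 and give no version of either. What counted the reads, on which build and with which annotation, is not given in the sources used here. Odd numbers made up 16.6% to 25.8% of exon counts from 1 to 20, and why even counts prevail was not tested. No per-sample column was left unused. Exon counts summed to 33428836 to 76859163 per library, beside which intron counts made up 2.07% to 2.57%. Libraries were made with a TruSeq v2 kit, per the labels' protocols. It leaves strand unmarked, so reads of overlapping genes cannot be told apart.

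The test on the exon counts of all genes was that of edgeR 4.0.16 under R 4.3.3 (TMM scaling, robust quasi-likelihood fit, Benjamini-Hochberg at 0.05, genes kept by filterByExpr at min.count 10 and min.total.count 15), with run and treatment as terms. The interaction of run with treatment and the intron counts were fitted the same way, the introns with the library sizes of the exons. CPM values are exon counts per 1000000, scaled by TMM, and SDs on them include the difference between runs. Single-run log2 fold changes used a prior count of 2. Alternatives were DESeq2 1.42.0, limma-voom (limma 3.58.1), other scalings and filters, halved counts, exon plus intron sums, fits with no run term, with a replicate block or on the first run only, and leaving out each library in turn.

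Members and lists were chosen with earlier results of these data known. Values per library were given for members that passed, for those with the smallest unadjusted p up to 20, for IAA1, IAA17, IAA19, IAA29, GH3.3 and GH3.5 in any case, for other listed genes that passed, and for TCP5, YUC5 and TAA1, with overlapping loci by fold change. GH3.2, IAA5, AFB2, ILL6 and the untested members were named outside this rule, after their values were seen. Sequences and names came from RefSeq for TAIR10.1, which matched 37898 of 38194 loci, and for 23 of 36 members its exonic length was the one in the files.

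Deviations from the group mean correlated between libraries of the same number (r of 0.63, 0.61 and 0.88 over genes for replicates 1, 2 and 3), which met the rule for pairing, but DEX 1 with MOCK 2 (0.69) and DEX 2 with MOCK 1 (0.69) did so as well, so the data show a pairing by run. No library duplicated another, with a lowest chi-square per degree of freedom of 28.7 between any 2.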

Additional observations from a re-analysis of the deposited data

How the results depend on the processing

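IAA1 and IAA11 passed in 18 of 19 alternatives, IAA28 in 13, IAA17 in 12, GH3.5 in 11 and IAA27 in 7, while GH3.3 passed in 6 and IAA14 in 5. These alternatives are not separate checks. With run in the model, the fits without DEX replicate 3 or MOCK replicate 3 in effect repeat the first-run fit. GH3.3 and IAA14 passed in each of these fits. The number of members called was 6. It was 0 with no run term, where all genes gave 0 calls and 4 members and 798 genes had an unadjusted p under 0.05, and 3 with the replicate block (IAA1, IAA11 and IAA28). Leaving out 1 library at a time it ran from 2 to 5, with 3 without DEX replicate 2 or MOCK replicate 1 and 2 without MOCK replicate 2. All genes called numbered 1024, against 2065 by DESeq2 and 571 with the replicate block, and 279 (without MOCK replicate 2) to 1132 (without DEX replicate 1) with 1 library left out, including 304 without DEX replicate 2, 476 without MOCK replicate 1, 613 without DEX replicate 3 and 630 without MOCK replicate 3. DESeq2 called the interaction for 2 members and 47 genes, and leaving out a first-run library gave 0 to 4 genes and 0 members; a second-run library could not be left out there. For introns the 1 member was lost (0) under a filter of 1 CPM, with the replicate block and without each library in turn, and genes called numbered 321 without a filter and 26 to 120 with 1 library left out. The replicate block changed the calls of members as given in the report. Among members described one by one, the sign turned for 3: IAA7 had a log2 fold change of −0.014 in the first run alone and −0.023 to 0.14 with 1 library left out, IAA29 of −0.26 in the first run alone and −0.27 to 0.67 with 1 library left out, and IAA19 of −0.019 to 0.11 with 1 library left out. In the first run alone it also turned for IAA8 (0.02, against −0.05 with both runs), IAA10 (0.10, against −0.005), IAA12 (0.04, against −0.02) and IAA13 (0.12, against −0.02), and the 10 members summarised together were not followed under every alternative. The cause of these changes was not tested. Of 622 values of named genes under alternatives 530 kept direction and side of the threshold. The median over all genes was 0.004 with TMM and 0.011 to 0.048 with other scalings. The 5 members not tested had at most 20 counts in any library, and GH3.1 and IAA20 were tested with fewer than that in several libraries.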
